A study of Xenopus laevis with 79 samples.

Results

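The caudal genes cdx2 and cdx4 are present in the X. laevis count table as 4 loci, cdx2.l, cdx2.s, cdx4.l, and cdx4.s, the L and S copies that the 2 ancestral subgenomes of this allotetraploid frog contributed. These 4 of 45099 loci were taken by name, with earlier results of these data known, and each was followed through all 79 libraries. The authors report cdx2 and cdx4 among the genes most negatively correlated with the component they matched to the anterior-posterior axis. The posterior calls below are thus not independent of that choice. All embryos were wild type. Of the libraries, 63 were dissected ectoderm and 16 were whole embryos (WEs), 2 at each of 8 stages from St. 11-11.5 to St. 18-19. At stage (St.) 12.5, by the table of Nieuwkoop and Faber, the pieces were anterior and posterior neural plate (NPa and NPp, 3 libraries each), anterior, posterior, and lateral neural border (NBa, 4 libraries, NBp and NBl, 3 each), the anterior neural border together with preplacodal ectoderm (ANB/PPE, 3), and nonneural ectoderm (NNE, 3). At St. 14 they were NPa (3), NPp (4), NBa (6), NBp (5), anterior and posterior nonneural ectoderm (NNEa and NNEp, 3 each), the anterior neural fold together with preplacodal ectoderm (ANF/PPE, 5), and the undivided neural plate (NP, 2) and neural border (NB, 4). Neural crest (NC, 4) and placodes (Pc, 2) were cut out at St. 17.

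Caudal proteins are homeodomain transcription factors related to Drosophila caudal. In vertebrate embryos their genes are switched on around the closing blastopore or primitive streak under Wnt, Fgf, and retinoic acid signals, and the proteins bind and activate Hox genes of the trunk and tail. In the neural plate they are known for promoting spinal cord over hindbrain identity, and cdx2 is later a gene of the intestinal epithelium. The other family member, cdx1, was measured alongside as cdx1.l and cdx1.s.

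Levels are given as CPM, counts scaled to the size of each library after TMM (trimmed mean of M-values) normalisation. Overlap between libraries of 2 groups is described for the named loci only. The share of all loci without overlap was not counted in any contrast. Library totals ran from 8898486 to 18468048 counts, so that levels under 1 CPM rest on few fragments. At St. 12.5 plate and nonneural pieces carried the markers of their labels. The 5 neural plate loci summed to 1286 to 1858 CPM in NPp and 56.8 to 68.9 CPM in NNE at St. 12.5, and the 8 nonneural loci summed to 4.89 to 15.1 CPM in NPp and 6174 to 6900 CPM in NNE. At St. 14 the 8 border loci were also high outside the border, at 827 to 1688 CPM in NPa and 651 to 815 CPM in NNEa, against 715 to 2352 CPM in NBp and 2261 to 2714 CPM in NBa. A few libraries stood apart and touch the results below. The St. 14 NBp library of embryo 10 (replicate 2) went against its label, with 41 hox loci of paralog groups 5 to 13 summing to 40.7 CPM there and to as much as 1614 CPM in another NBp library. The 2 NPa pieces of this embryo also differed, with cdx4.l at 62.6 and 0.323 CPM. Whether labels were exchanged among pieces of embryo 10 was not tested, so that the region of its NBp and NPa values is in doubt. The St. 12.5 NPp library of embryo 5 (replicate 2) carried mesoderm RNA, with myod1.l at 22.2 CPM, and so did replicate 2 of the undivided NP, with myod1.l at 140 CPM. Some pieces of 1 region at St. 14 came from 1 embryo (NPa replicates 1 and 2, NNEp 2 and 3, NBa 5 and 6, ANF/PPE 2 and 3). In bulk RNA of this kind, fewer expressing cells and less RNA per cell cannot be told apart.

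At St. 12.5 all 4 loci were high in the posterior plate and border and near 0 at the front. In NPp, cdx2.l was at 204, 270, and 197 CPM and cdx4.l at 266, 267, and 729 CPM. In NBp, cdx2.l was at 331, 484, and 564 CPM and cdx4.l at 716, 618, and 843 CPM. In NPa the same loci were at 0.206, 0.155, and 1.29 CPM and at 0, 0, and 2.86 CPM. No posterior library overlapped an anterior one, and NPa replicate 3, of embryo 7, was the highest of its group for each of the 4 loci.

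The S copies followed the same map. In NBp, cdx2.s was at 249, 357, and 429 CPM and cdx4.s at 629, 420, and 592 CPM. The lateral border NBl held cdx2.s at 220, 184, and 201 CPM and cdx4.s at 138, 147, and 232 CPM, below every NBp library for both. ANB/PPE had at most 0.651 CPM of any of the 4 loci, and NBa between 0.502 and 27.9 CPM, with its highest value for each locus in replicate 3, the 1 St. 12.5 region library without an embryo number.

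**Figure D1:**
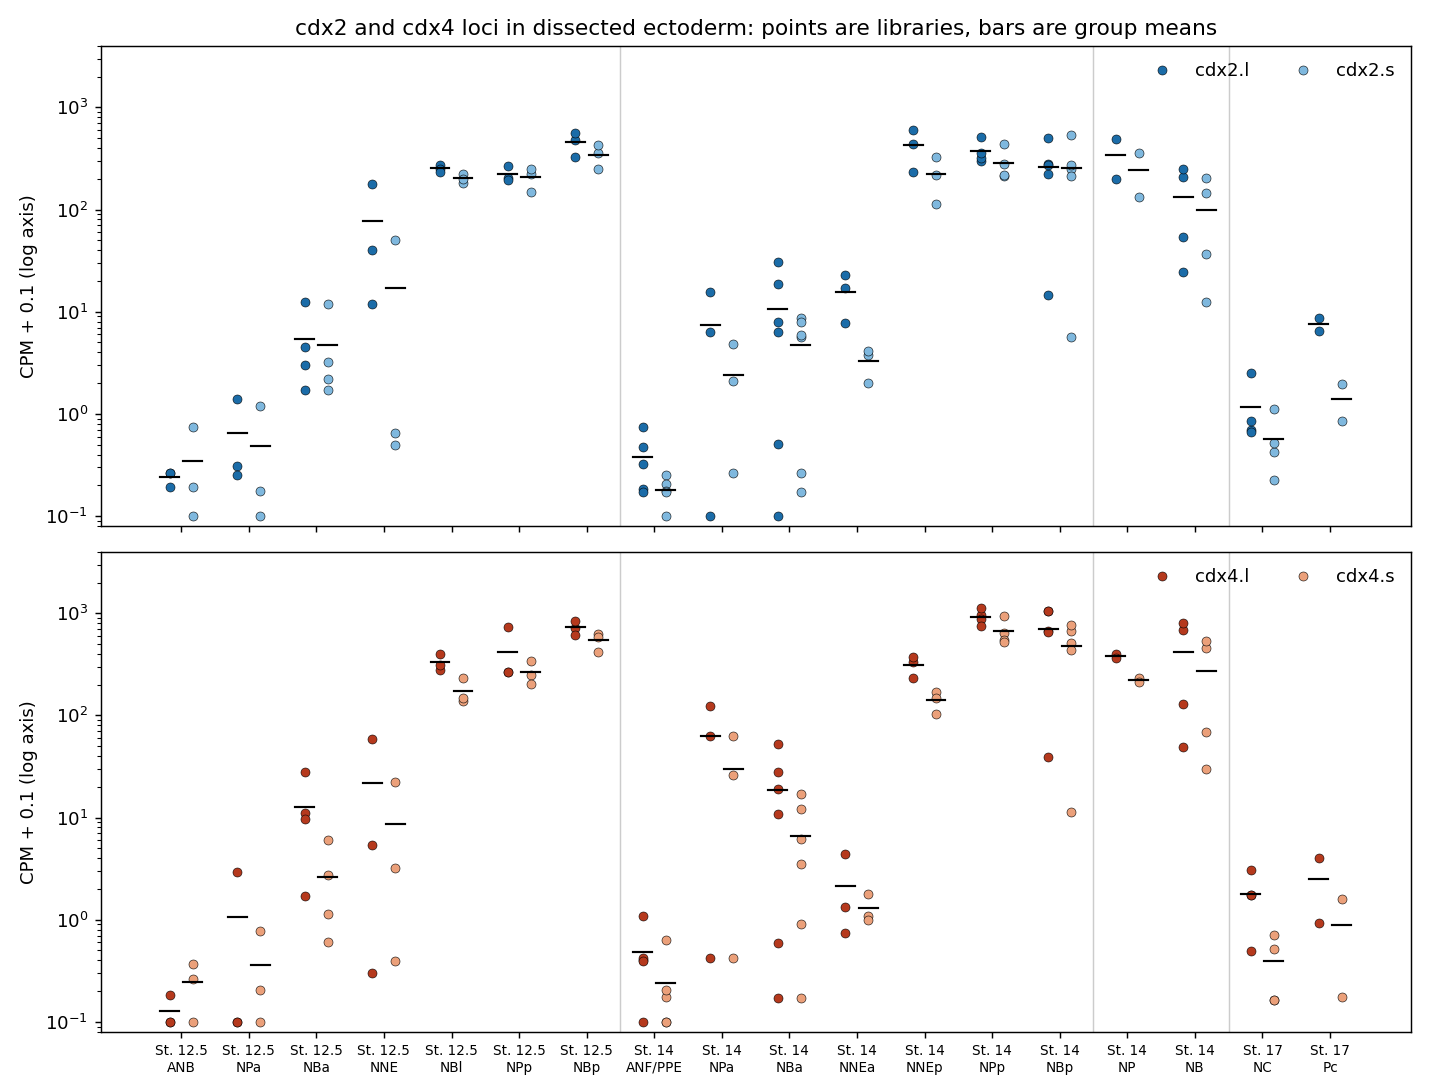
CPM (plus 0.1, log axis) of cdx2.l and cdx2.s (top) and cdx4.l and cdx4.s (bottom) in every library of dissected ectoderm; points are libraries, bars are group means, and grey lines part St. 12.5, St. 14, undivided St. 14, and St. 17 pieces. NPp, NBp, NBl, and NNEp sit above 100 CPM for every locus, with the St. 14 NBp library of embryo 10 as the exception.

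In the nonneural ectoderm of St. 12.5 the embryos differed and the loci parted. NNE held cdx2.l at 179, 39.9, and 11.7 CPM in embryos 4, 5, and 7. In the same libraries cdx2.s was at 50.1, 0.543, and 0.397 CPM and cdx4.l at 59.04, 5.34, and 0.198 CPM. The library of embryo 4 was thus the highest for every locus, and in the other 2 cdx2.l was the single member above 10 CPM. The 16 tail bud and mesoderm loci summed to only 2.87 to 11.9 CPM in NNE.

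By mean CPM, cdx2.l at St. 12.5 ran NBp (459 ± 119, SD, n = 3), NBl (253 ± 19.8, n = 3), NPp (224 ± 40.2, n = 3), NNE (76.8 ± 89.5, n = 3), NBa (5.31 ± 4.78, n = 4), NPa (0.552 ± 0.644, n = 3), and ANB/PPE (0.139 ± 0.0416, n = 3). Neighbours in that order whose libraries overlapped were NBl with NPp, NNE with NBa, and NPa with ANB/PPE. For cdx2.s, cdx4.l, and cdx4.s, NPp came after NBp and before NBl, NPp and NBl overlapping each other, and the order was otherwise the same. NBp also overlapped NPp for cdx2.s and cdx4.l. NBl and NNE did not overlap for any of the 4 loci, as for cdx4.l at 330.5 ± 64.5 and 21.5 ± 32.6 CPM (n = 3 each).

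Embryos 4, 5, and 7 gave all 7 regions, so the map could be read within 1 animal. In each of the 12 profiles, 4 loci in 3 embryos, NBp was the highest region. NPp was next in 7 of them and NBl in 5. In embryo 7, cdx4.s fell from 592 CPM in NBp to 340 in NPp, 232 in NBl, and 1.04 or less in NBa, NPa, NNE, and ANB/PPE.

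**Figure D2:**
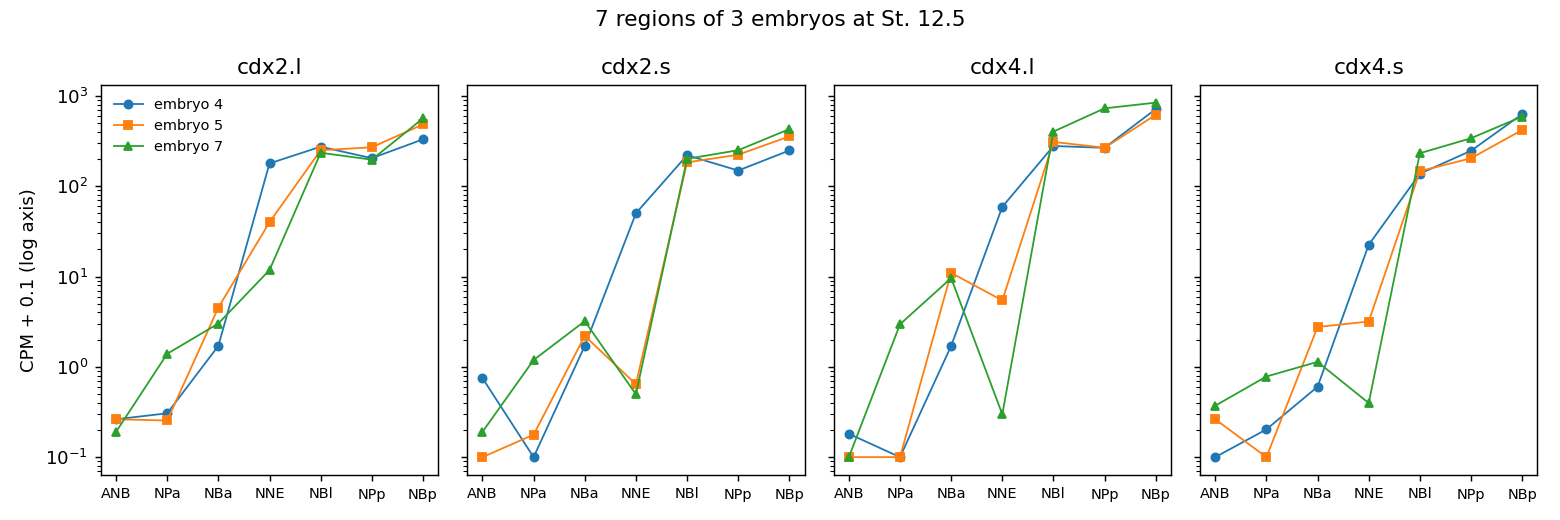
CPM (plus 0.1, log axis) of each locus in the 7 regions of embryos 4, 5, and 7 at St. 12.5; each line joins the pieces of 1 embryo. NBp is the highest point of all 12 lines, and the lines separate most in NNE.

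For each contrast of regions edgeR's quasi-likelihood test was run on every locus whose count passed 10 in 2 or more libraries, with 1 spread for all regions of a stage and p adjusted by Benjamini-Hochberg over all loci tested (called at 0.05). All 4 loci were higher in NPp than in NPa, where 2.99% of all loci were called higher. The log2 differences were 8.59 ± 0.99 (SE) for cdx2.l, 8.92 ± 1.53 for cdx2.s, 8.703 ± 1.4998 for cdx4.l, and 9.85 ± 1.26 for cdx4.s, with adjusted p from 2.93e-05 to 0.00165. Since NPa was near 0, these sizes depend on the small count that the fit adds. Without the NPp library that carried mesoderm RNA, all 4 remained called, and cdx4.l differed by 8.95.

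Along the border the same contrast held. All 4 loci were higher in NBp than in NBa, with log2 differences from 5.85 ± 1.13 (cdx4.l) to 7.69 ± 0.95 (cdx4.s), where 2.28% of all loci were called higher. All 4 were also higher in NBl than in NBa, from 4.73 ± 1.08 (cdx4.l) to 6.04 ± 0.89 (cdx4.s), with 2.53% of all loci called higher, the call of cdx4.l being lost without NBa replicate 2 (adjusted p = 0.0506) or NBl replicate 3 (0.0602). From NBl to NNE the 4 loci did not behave alike. There cdx2.s (3.43 ± 1.12, adjusted p = 0.0332), cdx4.l (3.80 ± 1.17, adjusted p = 0.0241), and cdx4.s (4.19 ± 0.92, adjusted p = 0.00366) were called, and cdx2.l was not, at 1.57 ± 0.69 (adjusted p = 0.105), with 7.69% of all loci called higher. Of these calls 1 was left without NBl replicate 2 and without NNE replicate 2 or 3, and 2 without NBl replicate 1 or 3, while without NNE replicate 1 all 4 loci were called.

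Neither step around the posterior border was called. Between NPp and NBp, where 1.10% of all loci were called in either direction, the 4 loci differed by -0.69 to -0.996 on the log2 scale, with adjusted p from 0.722 to 0.901 (unadjusted from 0.162 to 0.508). Between NBp and NBl, where 5.53% were called, they differed by 0.76 to 1.65, with adjusted p from 0.256 to 0.708 (unadjusted from 0.0566 to 0.464). In a fit of NBp and NBl alone, cdx2.l (adjusted p = 0.0457), cdx4.l (0.0120), and cdx4.s (0.00551) were called higher in NBp, and cdx2.s was not (0.0688). That fit called 2298 of 18974 loci in either direction.

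Mesoderm markers moved with these posterior pieces. t.l (brachyury, a gene of the blastopore and tail bud) was at 60.9, 105, and 271 CPM in NBp, at 74.5, 17.4, and 165 CPM in NBl, and at 5.25, 98.3, and 3.61 CPM in NPp. The 16 tail bud and mesoderm loci together summed to 199 to 826 CPM in NBp, 79.999 to 453 in NBl, 30.9 to 570 in NPp, and 0.155 to 1.13 in NPa. Their part in the order NBp, NPp, and NBl was not tested. In the 2 NPp libraries with t.l under 6 CPM, cdx2.l was at 204 and 197 CPM and cdx4.l at 266 and 729 CPM. These 2 were not free of tail bud or mesoderm RNA, the 16 loci summing to at least 30.9 CPM in every NPp library.

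At St. 14 the caudal loci were high in 3 posterior regions and variable at the boundary with the front. NPp held cdx2.l at 302, 317, 356, and 518 CPM and cdx4.l at 953, 876, 754, and 1120 CPM. NNEp held cdx2.l at 435, 608, and 232 CPM and cdx4.l at 230, 335, and 373 CPM. NBp held cdx2.l at 282, 507, 224, and 271 CPM and cdx4.l at 1060, 1043, 672, and 659 CPM in 4 libraries. In replicate 2, of embryo 10, cdx2.l was at 14.3 CPM and cdx4.l at 39.04 CPM, inside the range of NBa for all 4 loci.

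The anterior pieces of St. 14 varied widely among libraries of 1 region. In NPa, cdx4.l was at 62.6 and 0.323 CPM in the 2 pieces of embryo 10 and at 125 CPM in that of embryo 11, and cdx2.l at 6.24, 0, and 15.6 CPM in the same order. In NBa, cdx4.l ran from 0.0720 CPM through a median of 14.8 to 52.3 CPM, and cdx2.l from 0 through 7.04 to 30.5 CPM. NNEa held cdx2.l at 22.6, 7.63, and 16.8 CPM and cdx4.l at 1.23, 0.636, and 4.28 CPM. ANF/PPE had at most 0.979 CPM of any of the 4 loci in its 5 libraries.

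By mean CPM, cdx4.l at St. 14 ran NPp (926 ± 154, n = 4), NBp (695 ± 414, n = 5), NNEp (313 ± 74.1, n = 3), NPa (62.5 ± 62.1, n = 3), NBa (18.4 ± 19.7, n = 6), NNEa (2.05 ± 1.96, n = 3), and ANF/PPE (0.378 ± 0.361, n = 5). Of these neighbours, only NNEp and NPa did not overlap. cdx4.s kept this order, with a gap between NNEa and ANF/PPE as well. For cdx2.l the order was led by NNEp (425 ± 188, n = 3), followed by NPp (374 ± 99.4, n = 4) and NBp (260 ± 176, n = 5), and then by NNEa, NBa, NPa, and ANF/PPE, each overlapping the next. For cdx2.s, NPp, NBp, and NNEp led in that order, and NBa followed below a gap.

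All 4 loci were higher in NBp than in NBa at St. 14, where 1.42% of all loci were called higher. The log2 differences were 4.62 ± 0.94 for cdx2.l, 5.77 ± 0.86 for cdx2.s, 5.24 ± 1.04 for cdx4.l, and 6.20 ± 0.99 for cdx4.s, with adjusted p from 0.000326 to 0.00779. Without the NBp library of embryo 10 they were 4.94, 6.10, 5.56, and 6.53, and all remained called. Library names carry the prefix B100 or B108. NBp replicates 1, 3, and 5 and NBa replicate 1 were B100, so that prefix and region partly coincide. With the prefix as a covariate 3 of the 4 were called. Tail bud and mesoderm markers moved with this contrast, 5 of 11 tested loci being called higher in NBp, and the sums of the 16 listed were 44.5 to 180 CPM in NBp and 4.53 to 14.7 CPM in NBa. Their part in it was not tested. With embryo as a block, which leaves 3 NBp libraries, that of embryo 10 among them, none of the 4 was called, with log2 differences from 3.47 to 5.32 and adjusted p of 0.969 or more. That fit called 0 of 21963 loci, so that the lack of calls is not particular to the caudal loci.

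The nonneural ectoderm showed the same contrast. All 4 loci were higher in NNEp than in NNEa, by 4.79 ± 1.32 for cdx2.l (adjusted p = 0.0463), 6.13 ± 1.23 for cdx2.s (0.00483), 7.24 ± 1.63 for cdx4.l (0.0119), and 6.91 ± 1.47 for cdx4.s (0.00783), where 0.813% of all loci were called higher. With the embryo block cdx2.s alone was called (adjusted p = 0.0446), while cdx4.l, cdx4.s, and cdx2.l had adjusted p of 0.0956, 0.0857, and 0.223. With limma-voom cdx2.l alone was called. Without each library in turn, 1 to 3 of the 4 were called, so that every omission lost at least 1 call. Without NNEa replicate 2 or 3, 1 and 2 of the 4 were called. The 16 tail bud and mesoderm loci summed to 9.02 to 27.9 CPM in NNEp and 5.69 to 20.9 CPM in NNEa, ranges that overlapped. Markers of the border did not overlap, with the 8 border loci at 11.9 to 49.7 CPM in NNEp and 651 to 815 CPM in NNEa. The same was true of the 4 preplacodal loci (5.10 to 8.55 and 36.9 to 161 CPM) and the 5 neural plate loci (13.6 to 43.7 and 55.7 to 162 CPM), and the part of these tissues in the result was not tested.

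In the plate the calls differed between the 2 genes, and the difference between the genes was not tested. cdx2.l (5.68 ± 1.36, adjusted p = 0.0229) and cdx2.s (6.95 ± 1.27, 0.00459) were called higher in NPp than in NPa, and cdx4.l (3.90 ± 1.33, 0.140) and cdx4.s (4.48 ± 1.24, 0.0542) were not, where 1.04% of all loci were called higher. Every NPp library nevertheless lay above every NPa library for each locus, the share of all loci for which this held not being counted. The split of the calls depended on the tool, since all 4 were called with the DESeq2 Wald test (adjusted p from 1.02e-07 to 0.0498) and with limma-voom (from 0.0171 to 0.0457). With the embryo block cdx2.s alone was called, cdx2.l having adjusted p = 0.0698, and 1 was also left without NPa replicate 1 or 2 or NPp replicate 4. NPa also differed from NPp by hindbrain and border genes: egr2.l (krox20, of hindbrain rhombomeres) was at 55.9 ± 7.93 CPM in NPa (n = 3) and 0.403 ± 0.261 in NPp (n = 4), and the 8 border loci summed to 118 to 286 CPM in NPp, below every NPa library. Their part in the result was not tested.

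Toward the front, all 4 loci were higher in NBa than in ANF/PPE by edgeR, from 5.27 ± 1.23 (cdx2.l) to 5.69 ± 1.26 (cdx2.s), where 4.53% of all loci were called higher. Here NBa overlapped ANF/PPE, with 1 library at or under 0.0720 CPM for each locus. With the embryo block cdx2.s alone was called (adjusted p = 0.0454), and with limma-voom none was. Among the posterior regions, NPp with NBp and NBp with NNEp were tested, and none of the 4 loci was called. NPp and NBp differed by 0.15 to 0.50 (adjusted p from 0.770 to 0.931, 11.9% of all loci called), and cdx2.s turned to -0.16 without the NBp library of embryo 10. NBp and NNEp differed by -0.68 ± 0.99 for cdx2.l, 0.24 ± 0.88 for cdx2.s, 1.17 ± 1.13 for cdx4.l, and 1.795 ± 1.06 for cdx4.s, with adjusted p from 0.190 to 0.861 and 35.7% of all loci called.

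**Figure D3:**
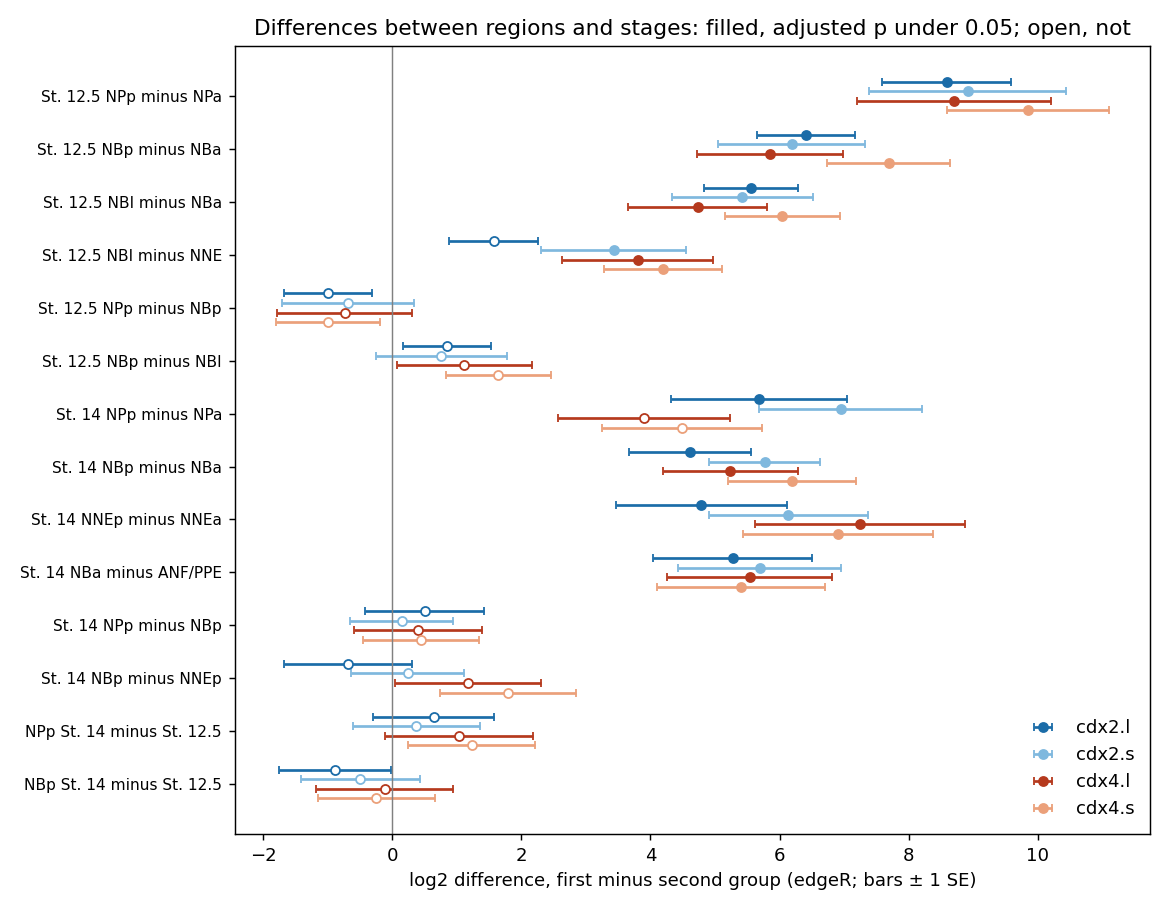
Log2 difference between regions or stages, first minus second group, with 1 SE, for each of the 4 loci (edgeR); filled points have an adjusted p under 0.05 and open points do not. Contrasts of posterior with anterior pieces lie between 3.90 and 9.85, and contrasts among posterior pieces or between stages lie between -0.996 and 1.795. NBl minus NNE of St. 12.5 lies between 1.57 and 4.19, and NBa minus ANF/PPE of St. 14 between 5.27 and 5.69.

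From St. 12.5 to St. 14 the 4 loci were not called in either posterior region, although a large share of the transcriptome was. In NPp they differed by 0.64 ± 0.94 (cdx2.l), 0.37 ± 0.98 (cdx2.s), 1.04 ± 1.15 (cdx4.l), and 1.23 ± 0.99 (cdx4.s), with adjusted p from 0.327 to 0.792, where 40.4% of all loci were called. Every NPp library of St. 14 nevertheless lay above every one of St. 12.5 for cdx2.l, cdx4.l, and cdx4.s. For cdx4.s these were at 528 to 939 and 204 to 340 CPM. For cdx2.s the stages overlapped. The missing calls thus do not show that levels in NPp stayed the same. How many of all loci lacked overlap here was not counted, so that this lack cannot be read as particular to the caudal loci. In NBp they differed by -0.12 to -0.88, with adjusted p from 0.438 to 0.944, where 38.3% were called, and without the library of embryo 10 cdx4.l and cdx4.s turned to 0.19 and 0.07. From St. 12.5 to St. 14 the contrast of NPp with NPa differed by -4.82 ± 1.804 for cdx4.l and -5.37 ± 1.71 for cdx4.s on the log2 scale, which was not called (adjusted p = 0.374 and 0.246, unadjusted 0.0107 and 0.00312, 0.227% of all loci called). The change for cdx2.l and cdx2.s was -2.91 ± 1.55 and -1.98 ± 1.70. For NBp against NBa the change was -0.45 to -1.81 (adjusted p = 0.999985 for each, 0.0428% called).

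The balance of the 2 genes differed between regions. It is given as the ratio of cdx4 to cdx2 counts, both copies summed, in libraries with at least 100 such counts. It is not scaled to transcript length, so that its changes, and not its value, can be read. At St. 14 the ratio was 3.10, 2.65, 2.01, and 2.16 in NPp, and from 1.73 through a median of 2.52 to 3.25 in NBp, that of embryo 10 included. In NNEp it was 0.507, 0.538, and 1.52, and in NNEa 0.124, 0.152, and 0.251. In the 2 NPa libraries with enough counts it was 10.7 and 9.20. In the 4 NBa libraries with enough counts it ran from 0.955 to 2.96. NNEa thus held the lowest ratios of the separated regions and NPa the highest, while NNEp replicate 3 lay inside the range of NBa.

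Compared after these values were seen, NNEp lay below NPp and NBp, with log2 differences of -1.71 and -1.68 and no overlap in either case. The two-sided exact permutation p was 0.0571 and 0.0357, the smallest that 3 against 4 and 3 against 5 libraries allow. At St. 12.5 the ratio was 0.356, 0.210, and 0.0488 in NNE, below NPp (1.45, 0.955, and 2.39) and NBl (0.842, 1.05, and 1.46), with log2 differences of -3.28 and -2.82, each with an exact p of 0.10, the smallest for 3 against 3. Adjusted over these 4 comparisons, each p was 0.10. Values without overlap always give the smallest p, and these values were seen first, so that the p-values add no support. The test also took pieces of 1 embryo, such as NNEp replicates 2 and 3, as independent. With the S copies alone, NNE and NBl differed by 0.55 in the other direction, and NNE and NPp by -0.07, with cdx2.s at 6 and 4 counts in NNE replicates 2 and 3.

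Between stages the ratio was compared in NPp and NBp. In NPp the log2 ratio was 0.58 ± 0.66 (SD, n = 3) at St. 12.5 and 1.29 ± 0.28 (n = 4) at St. 14, and in NBp 0.68 ± 0.47 (n = 3) and 1.26 ± 0.36 (n = 5). The log2 differences were 0.71 and 0.57, from 0.39 to 1.05 and from 0.39 to 0.84 without 1 library each. The exact permutation p was 0.171 and 0.107, both 0.171 after adjustment. With 3 against 4 libraries the smallest p is 0.0571, so that the NPp comparison could not pass 0.05. The undivided NP libraries had ratios of 1.92 and 0.680, the lower one in the library with myod1.l at 140 CPM.

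**Figure D4:**
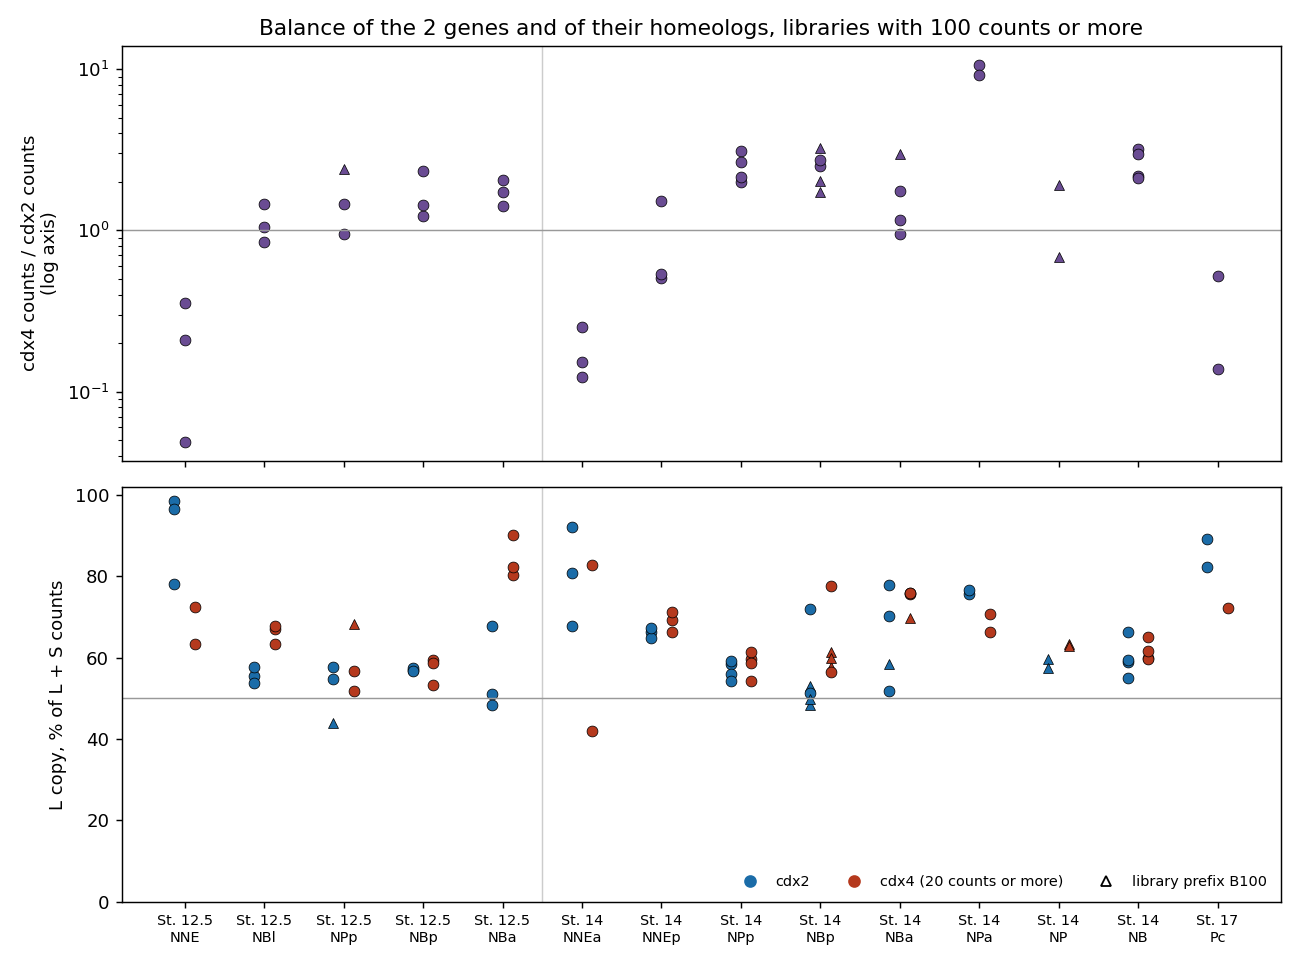
Ratio of cdx4 to cdx2 counts (top, log axis) and percent of each gene's counts on its L copy (bottom). Libraries have 100 counts or more over both genes together, and cdx4 shares are drawn only with 20 cdx4 counts or more. Triangles are libraries with the prefix B100. NNE and NNEa lie below 0.4 in the top panel and NPa near 10, and the cdx2 L share reaches 98.7% in NNE.

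The share of counts on the L copy differed between regions. In NPp of St. 14, cdx2.l held 54.3% to 59.2% of the cdx2 counts and cdx4.l 54.4% to 61.6% of the cdx4 counts. In NNEp the shares were 64.8% to 67.3% and 66.5% to 71.4%, above every NPp library. In NNE of St. 12.5 cdx2.l held 78.1%, 98.7%, and 96.7% of the cdx2 counts, with exact 95% binomial intervals of 76.3% to 79.8%, 97.1% to 99.5%, and 91.8% to 99.1% that cover counting error only, and all 3 lay above NPp of that stage (44.01% to 57.8%). In NNEa of St. 14 the cdx2 share was 67.7% to 92.2%, also above NPp. For cdx4 the L shares were 40.0% to 72.5% in NNE and 38.9% to 82.9% in NNEa. In NPp they were 51.9% to 68.2% at St. 12.5, with the range of St. 14 given above. The lowest shares rest on 5 cdx4 counts in NNE (interval 5.27% to 85.3%) and 18 in NNEa (17.3% to 64.25%). NNE replicate 1, with 782 cdx4 counts, was at 72.5% (69.2% to 75.6%), above every NPp library of St. 12.5. Replicate 2, with 93, was at 63.4%, inside the NPp range. High L shares were not confined to nonneural pieces. In libraries with enough counts, St. 14 NPa was at 75.68% and 76.67% for cdx2 and at 66.31% and 70.72% for cdx4. These lay above every NPp library of that stage. St. 14 NBa ran from 51.95% to 78% for cdx2, overlapping NPp, and from 69.71% to 75.98% for cdx4. St. 12.5 NBa ran from 48.44% to 67.9% for cdx2, also overlapping NPp. Its cdx4 shares, 80.36% to 90.18%, lay above every NNE library.

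The ratio of copies was tested with limma over 5015 homeolog pairs in the 51 libraries of separated regions, again after these values were seen. The cdx2 L/S ratio was higher in NNE than in NPp by 4.00 ± 0.76 on the log2 scale (adjusted p = 7.41e-05, 29.2% of all pairs called). It was higher than in NBl by 3.80 ± 0.76 (adjusted p = 0.000975, 10.8% called). The cdx4 L/S ratio differed by 0.05 ± 0.69 and -0.38 ± 0.69, with only 5 cdx4 counts in NNE replicate 3. Without each library in turn the cdx2 differences lay between 3.08 and 5.15 and between 2.88 and 4.95, and all stayed called. For NNEp against NPp, where 32.3% of pairs were called, the differences were 0.56 ± 0.71 for cdx2 and 0.66 ± 0.65 for cdx4, not called in this fit, whose spread includes libraries with few counts, and called in a fit of the 2 regions alone (SE 0.10 and 0.13, adjusted p = 0.00452 and 0.00572). The share of pairs called in the fit of 2 regions is not given here. That fit also took NNEp replicates 2 and 3, pieces of 1 embryo, as independent. For NNEp against NBp they were 0.66 ± 0.68 and 0.38 ± 0.62 (adjusted p = 0.516 and 0.698, 24.2% called).

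Between stages neither L/S ratio was called. The cdx2 and cdx4 L/S ratios changed by 0.28 ± 0.71 and -0.03 ± 0.65 in NPp (34.9% of pairs called) and by -0.11 ± 0.68 and 0.36 ± 0.62 in NBp (36.4% called), with adjusted p from 0.689 to 0.980. Libraries of prefix B100 had cdx2 L shares of 44.01% in NPp and 48.5% to 53.2% in NBp, against 51.3% to 59.2% in B108 libraries of these regions other than that of embryo 10, which was at 72.1%. The prefix was tried as a covariate in the L/S fits, but the difference in share between the prefixes was not itself tested.

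Whole embryos gave a rise and a fall. From St. 11-11.5 to St. 13, cdx2.l went from 108.4 and 105 to 228 and 237 CPM, cdx2.s from 62.5 and 46.4 to 132 and 147 CPM, cdx4.l from 91.7 and 87.5 to 257 and 284 CPM, and cdx4.s from 63.3 and 60.7 to 175 and 178 CPM. All 4 rose by edgeR, with log2 differences of 1.03 ± 0.10, 1.26 ± 0.16, 1.50005 ± 0.14, and 1.41 ± 0.13 (adjusted p from 1.80e-06 to 3.11e-05), where 33.5% of all loci rose. From St. 13 to St. 18-19 all 4 fell, by 0.72, 0.60, 0.57, and 0.56 on the log2 scale (adjusted p from 0.000791 to 0.0261), where 8.57% of all loci fell. At St. 18-19 they were at 135 and 155 CPM (cdx2.l), 85.6 and 105 (cdx2.s), 168 and 207 (cdx4.l), and 112 and 134 (cdx4.s). Of the 4 falls, 1 was left without St. 13 replicate 2 and without St. 18-19 replicate 1.

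The course was not smooth at St. 14. There cdx2.l was at 172 and 162 CPM and cdx2.s at 86.7 and 77.2 CPM, below both libraries of St. 13 and both of St. 14-15, while cdx4.s was at 174 and 172 CPM. The cdx4 to cdx2 ratio was 1.53 and 1.63 in these 2 embryo libraries and between 0.908 and 1.31 in the other 14. Other lists set these libraries apart as well. The 16 tail bud and mesoderm loci summed to 689 to 705 CPM at St. 14, 1043 to 1065 at St. 13, and 1191 to 1235 at St. 14-15. The 4 hindbrain loci summed to 14.6 to 18.2 CPM, 28.9 to 40.2, and 68.2 to 69.5 at the same stages, and the 24 anterior loci to 958 to 1030 CPM, 782 to 792, and 504 to 555. Their part in the lower cdx2 values was not tested. cdx1.s ran ahead of the members, from 177 and 151 CPM at St. 11-11.5 to 310 and 370 CPM at St. 12, and down to 118 and 130 CPM at St. 18-19.

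**Figure D5:**
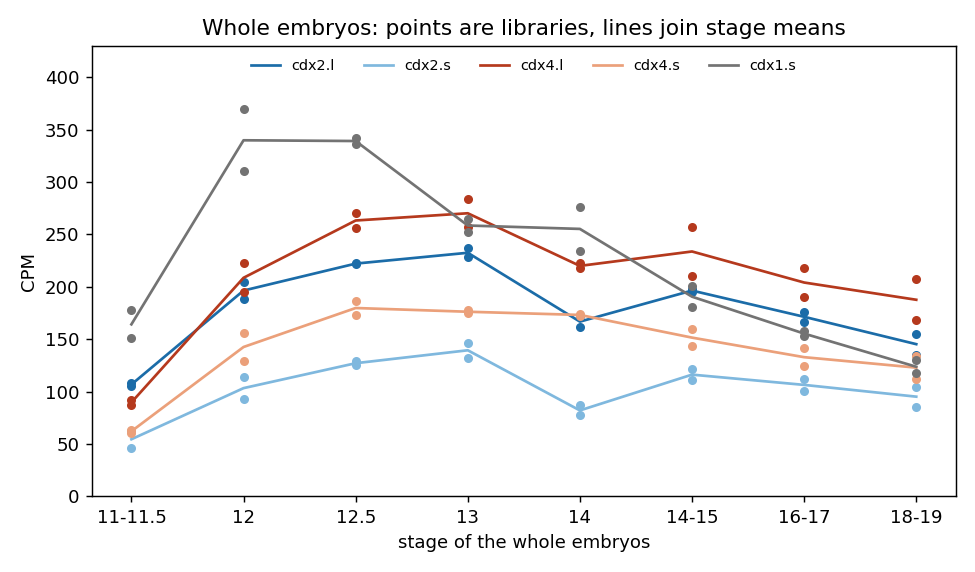
CPM of the 4 loci and of cdx1.s in whole embryos (vertical axis from 0) by stage; points are the 2 libraries of a stage and lines join stage means. All 4 members peak at St. 12.5 or St. 13, and cdx1.s is highest at St. 12 and 12.5.

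Against the embryo of the same stage, every NPp library of St. 14 was higher for each locus, with cdx4.l at 754 to 1120 CPM in NPp and 222 and 218 CPM in the embryos. In the fit of all 79 libraries the log2 differences of 1.16 ± 1.0003 (cdx2.l), 1.81 ± 1.09 (cdx2.s), 2.07 ± 1.26 (cdx4.l), and 1.94 ± 1.10 (cdx4.s) were not called (adjusted p from 0.192 to 0.416, 9.92% of all loci called higher). In a fit of these 6 libraries alone all 4 were called (adjusted p from 0.000443 to 0.00881). That fit called 7947 of 20649 loci in either direction. The embryos also hold mesoderm and endoderm, tissues in which caudal genes are known to be expressed.

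At St. 17 the caudal loci were low in both tissues. In NC, cdx2.l was at 0.588, 0.558, 2.39, and 0.754 CPM, and in Pc at 8.62 and 6.32 CPM, with no overlap. It was lower in NC, with a log2 difference of -2.67 (SE 0.58, adjusted p = 0.00700), where 19.0% of all loci were called lower, and the call was lost without Pc replicate 1. cdx2.s and cdx4.l differed by -1.33 ± 0.80 and -0.39 ± 0.78 and were not called, and cdx4.s had too few counts to be tested. In Pc 82.4% and 89.3% of the cdx2 counts were on the L copy. The endoderm list, of 9 loci, summed to 566 and 620 CPM in Pc and to 17.8 to 216 CPM in NC, and its part in the difference was not tested. The list includes a2m, which ectoderm pieces can hold. In St. 12.5 NPa the list summed to 243 to 577 CPM, and a2m.s alone averaged 400 ± 168 CPM (SD). The sum thus does not measure endoderm RNA alone.

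The paralog cdx1 followed the members. cdx1.s was at 345 ± 87.1 CPM in NPp and 0.846 ± 1.33 in NPa at St. 12.5 (n = 3 each), and at 572 ± 346 (n = 4) and 5.28 ± 5.91 CPM (n = 3) at St. 14, called higher in NPp both times (adjusted p = 0.0103 and 0.0150). cdx1.l had the same direction at a far lower level, 10.8 ± 1.98 CPM in NPp at St. 12.5 and 17.0 ± 16.5 at St. 14. In St. 12.5 NBp cdx1.s reached 917 ± 115 CPM (n = 3), its highest region mean.

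Hox genes, among them known targets of caudal proteins, were counted in the same contrast of NPp with NPa. At St. 12.5, 15 of 19 tested loci of paralog groups 1 to 4 were higher in NPp, and 23 of 32 of groups 5 to 13. None was lower, where 2.99% of all loci were called higher and 0.740% lower. The medians of groups 1 to 4 and 5 to 13 were 6.72 and 6.37 on the log2 scale against 0.04 over all loci. hoxd1.s was at 140 ± 54.7 CPM in NPp and 0.230 ± 0.334 in NPa, and hoxc8.l at 5.56 ± 1.74 and 0.0227 ± 0.0393. At St. 14 the groups parted. By edgeR 0 of 22 of groups 1 to 4 were higher (2 at an unadjusted p under 0.05). Of these 22, 1 was lower, hoxb1.l (1.05 ± 1.42 CPM in NPp, 12.9 ± 8.48 in NPa, adjusted p = 0.0189, 1.17% of all loci called lower). Of groups 5 to 13, 28 of 41 were higher, where 1.04% of all loci were called higher. Examples are hoxc8.s (86.7 ± 14.7 against 0.506 ± 0.637 CPM) and hoxc9.l (58.4 ± 12.0 against 0.0226 ± 0.0392 CPM). NPa itself held hox RNA of groups 1 to 4, such as hoxb2.s at 22.004 ± 17.8 CPM. Loci of groups 5 to 13 were also higher in NBp than in NBa, 30 of 32 at St. 12.5 and 34 of 41 at St. 14. Of all loci, 2.28% and 1.42% were called higher in these contrasts. In NNEp 15 of 41 were higher than in NNEa, where 0.813% of all loci were called higher.

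Genes of the signals that are known to act on caudal genes were counted as well. Of 36 tested loci of Wnt, Fgf, and retinoic acid signaling, 21 were higher in NPp than in NPa at St. 12.5 (2.99% of all loci called higher, median 3.61 against 0.04 over all loci on the log2 scale), among them sp5l.s (526.2 ± 76.8 against 31.4 ± 21.5 CPM), a Wnt target, and spry2.l (72.9 ± 43.1 against 5.57 ± 2.09 CPM), an Fgf feedback inhibitor. At St. 14, 9 of 34 were higher (1.04% of all loci, median 0.79 against 0.003 over all loci), among them dusp6.s (74.9 ± 11.8 against 17.8 ± 4.69 CPM), a phosphatase induced by Fgf, and wnt5b.s (75.2 ± 26.6 against 2.60 ± 2.79 CPM), a Wnt ligand. Of the anterior regulators, 12 of 23 at St. 12.5 and 13 of 24 at St. 14 were lower in NPp (0.740% and 1.17% of all loci called lower), such as fezf2.s, a forebrain factor (0.972 ± 1.09 against 117 ± 53.4 CPM at St. 12.5). Of the 16 tail bud and mesoderm loci, 8 were higher in NPp at St. 12.5 (against 2.99% of all loci), and at St. 14 0 of 11 were by edgeR (6 at an unadjusted p under 0.05).

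The 4 members had closely similar profiles over the 14 region means of log2 CPM. Pearson r, given as a description of 14 points that share libraries, was 0.991 between cdx4.l and cdx4.s, 0.966 between cdx2.l and cdx2.s, and 0.932 to 0.975 between the genes, the lowest being cdx2.l with cdx4.l. Among 23386 other loci the profile closest to cdx2.s (r = 0.984) and to cdx4.s (r = 0.982) was that of cdx1.s, and for cdx4.l it was ngfr.l (r = 0.985), the low-affinity nerve growth factor receptor, followed by ngfr.s (r = 0.978) and cdx1.s (r = 0.976). wnt5b.s (r = 0.980) came next for cdx2.s, and a hoxc6 locus was among the 5 closest to cdx2.s (r = 0.960), cdx4.l (r = 0.962), and cdx4.s (r = 0.981). hoxc4.l (r = 0.947) was also among the 5 closest to cdx4.l. For cdx2.l the closest were the loci xelaev18029191m.g (r = 0.963), xelaev18000592m.g (r = 0.957), and loc100498064.l (r = 0.950), followed by cdx1.s (r = 0.941).

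In the RefSeq annotation of another assembly (Xenopus_laevis_v10.1), cdx2.L and cdx2.S each lie beside pdx1, with gsx1 the next gene on, the other genes of the ParaHox cluster, and cdx4.L and cdx4.S each lie beside kdrl. The cluster neighbours had few counts or none in these pieces. pdx1.l had 0 counts in all 51 libraries of separated regions, pdx1.s at most 8, gsx1.l at most 10, and gsx1.s at most 4.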

How the data were processed

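RNA-seq read counts per locus were analysed for 79 libraries. The authors cut ectoderm from single embryos, freed it from mesoderm, and made stranded poly(A) libraries. The submitters' notes name TopHat2 (2.0.14) and HTSeq, and the deposited counts exclude read pairs that mapped to more than 1 place, so that reads shared by L and S copies are not in them. The 5 HTSeq summary entries (15.67% to 25.51% of each library's total) were left out.

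Counts were tested in edgeR (4.0.16, R 4.3.3) by the quasi-likelihood F test with TMM scaling, 1 mean per stage and region, and loci whose count passed 10 in 2 or more libraries of the fit. SE was the log2 difference over the square root of F. The L/S ratio, log2 of (L + 1)/(S + 1), was tested with limma (3.58.1), and the cdx4 to cdx2 ratio, with 1 added to each sum, by two-sided exact permutation. Of these steps, only an edgeR contrast and a limma fit were tested on simulated data. DESeq2 (1.42.0) size factors and Wald test, limma-voom, no filter, compared groups alone, the library prefix (B100 or B108) as a covariate, the embryo as a block, and leaving out each library were tried. Fits without the doubted libraries, and the NNE and NNEp ratio comparisons, were added after the data were seen.

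Replicates were separate pieces. Of the libraries, 47 carried an embryo number, which pairs pieces of 1 animal. Deviations from group means correlated at a median of 0.24 (63 pairs) within embryos and -0.11 (126 pairs) between them at St. 12.5, and at 0.14 (51 pairs) and -0.02 (236 pairs) at St. 14. Subtracting the mean of a few libraries itself ties the values between embryos to those within them, with opposite sign. The values between embryos are thus no independent contrast. No 2 libraries held identical counts.

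The loci and gene lists were chosen with earlier results of these data known. Beside the 4 loci and cdx1, the text names from each list loci among the 3 of smallest p in NPp against NPa, and the 5 loci most like each member in Pearson r; t.l and myod1.l in single libraries were chosen after their values were seen. Listed hoxa2, hoxc10, wnt5a, cyp26c1, rarg, and tbx6 were not matched and are not analysed here. Gene lengths of the build used were not used here, so levels are not compared between genes.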

Additional observations from a re-analysis of the deposited data

Results flagged for a closer look

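In 3 of 28 groups of 4 to 10 libraries, 1 per locus and region, the highest library stood far from the rest. The rule compared its gap to the next library with the range of the group. The loci share libraries and some groups have few counts, so that 3 of 28 cannot be set against a chance rate. cdx2.l reached 2.39 CPM in NC replicate 3 against at most 0.754 CPM in the other 3. cdx2.s reached 11.7 CPM in St. 12.5 NBa replicate 3 against at most 3.11 CPM in the other 3. cdx4.s reached 0.527 CPM in St. 14 ANF/PPE replicate 4 against at most 0.107 CPM in the other 4.

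The undivided St. 14 pieces enter none of the comparisons. The 4 loci summed to at least 965 CPM in each undivided NP library and at least 116 CPM in each undivided NB library. In NB, cdx4.l was at 681, 803, 128, and 48.6 CPM, so that replicates 3 and 4 were far below 1 and 2.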

How the results depend on the processing

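All 4 loci stayed called under every alternative run for St. 12.5 NPp against NPa, St. 12.5 NBp against NBa, and whole embryos of St. 13 against St. 11-11.5. Of the 4 loci, the number called changed as follows. With the embryo block it was 1 for St. 14 NPp against NPa, 1 for NNEp against NNEa, 1 for NBa against ANF/PPE, and 0 for NBp against NBa. With limma-voom 4, 1, and 0 of the 4 were called for the first 3 of these contrasts, and with DESeq2 4 for the first. Those fits called 598, 675, 1774, and, with DESeq2, 954 of 22143 loci. With the library prefix as a covariate 3 of the 4 were called for St. 14 NPp against NPa and 3 for St. 14 NBp against NBa, with 573 and 136 of 22143 loci called. For St. 12.5 NBl against NNE 4 were called with limma-voom and 2 in a fit of these groups alone. Those fits called 5195 of 20956 and 6171 of 18926 loci. In fits of the compared groups alone 2 were called for St. 14 NBp against NBa, 3 for St. 12.5 NBp against NBl, and 4 for St. 14 NPp against whole embryos. Those fits called 128 of 20201, 2298 of 18974, and 7947 of 20649 loci. The NNEp against NPp L/S ratios (0.56 and 0.66) were also called in a fit of these groups alone. The block changed no other count by over 1.5 times. Without 1 library each, the number called ran from 3 to 4 for St. 12.5 NBl against NBa, 1 to 4 for St. 12.5 NBl against NNE, 1 to 3 for NNEp against NNEa, 1 to 2 for St. 14 NPp against NPa, 0 to 1 for NC against Pc, and 1 to 4 for embryos of St. 18-19 against St. 13. The cause was not tested.

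Signs changed for differences that were not called. NBp minus NNEp for cdx2.s was -0.51 with limma-voom, -0.96 with the embryo block, -0.67 with the prefix, and -0.06 and -0.23 without NNEp replicate 3 or NBp replicate 3, the highest being 0.65. St. 14 NPp minus NBp for cdx2.s ran, without 1 library each, from -0.16 (NBp replicate 2, of embryo 10) to 0.63, with -0.12 without NPp replicate 4. NBp between stages ran from -0.34 to 0.19 for cdx4.l and from -0.47 to 0.067 for cdx4.s, the highest without the same NBp library, and was 0.01 for cdx4.l without St. 12.5 NBp replicate 3. The stage change of NBp minus NBa for cdx4.l was 0.15 with limma-voom, and NC minus Pc for cdx4.l ran from -1.13 to 1.07, the latter without Pc replicate 1. The cdx4 L/S ratio ran, without 1 library each, from -0.24 to 0.26 in NPp between stages (0.05 without St. 14 NPp replicate 4), from -0.35 to 0.55 for NNE against NPp (-0.16 and -0.02 without NPp replicates 1 and 2, -0.04 without NNE replicate 2), and from -0.78 to 0.12 for NNE against NBl. The cdx4 to cdx2 ratio of NNE against NBl was 0.55 with the S copies. With 2 to 6 libraries a group, few counts in anterior pieces, and a wide spread between pieces, small differences between pieces could be missed. For cdx2.l in NPp between stages the SE was 0.94. In whole embryos of St. 18-19 against St. 13 it was 0.097, and a fall of 0.72 was called.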
